A study of Mus musculus with 6 samples.

Results

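The Notch receptors, ligands and Hes-type target genes of the lip were described across 3 WT and 3 KO mice. They were 10 genes listed by name, out of the 26814 gene symbols with counts: the receptors Notch1, Notch2, Notch3 and Notch4, the ligands Jag1, Jag2, Dll1 and Dll4, and the target genes Hes1 and Hey1. The list was made from the pathway without a cut-off on any measured value, but with earlier results of these data known. All 10 genes were found in the counts and all 10 passed the filter on low counts, as did 15009 genes in all. Notch4, the endothelial receptor, was lower in the libraries from KO mice, at 58.2% of its WT level. It passed the test over all genes, but in only 1 of 6 fits with a library left out and in 6 of 11 fits with other settings. Dll1 and Hey1 also lay below the WT in every KO library, where 18.1% of all tested genes did so, but did not pass the test over all genes. The highly expressed receptors, Jagged ligands and Hes1 overlapped between the genotypes.

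The tissue was top lip, which holds hairy skin, blood vessels and skeletal muscle, from adult female mice on the C57BL/6J strain, and each mouse gave 1 RNA-Seq library. WT mice were wild type. KO mice, on the same strain, were knockouts with the inherited targeted allele tm1Hrd of Gtf2ird1, a gene for a transcription factor. The study reports lip overgrowth in these mice, a trait that the line shows in homozygotes and not in heterozygotes. Levels are given as CPM, read counts relative to the library size after TMM scaling, and differences are log2 fold changes of KO against WT with their standard errors. The genotypes were compared with edgeR's quasi-likelihood test over all 15009 tested genes, with Benjamini-Hochberg adjustment and a threshold of 0.05.

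Notch signalling passes between touching cells. A Jagged or Delta ligand on one cell binds a Notch receptor on the next, the receptor is cut by an ADAM protease and by gamma-secretase, and the freed intracellular domain enters the nucleus, where it joins Rbpj and a Mastermind protein to switch on Hes and Hey repressors. In skin the pathway is known for the step from basal to suprabasal keratinocytes and for the upkeep of the hair follicle, and in vessels it sets endothelial sprouting, arterial identity and the state of the smooth muscle around them. Notch4 and Dll4 are chiefly endothelial genes, Notch3 is best known from vascular smooth muscle and pericytes, and Notch1, Notch2, Jag1 and Jag2 are used by the epidermis.

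The total counts per library lay between 20164081 and 29491767, and a floor of 3 counts, all that 0 counts can exclude, stood at 0.0986 to 0.154 CPM by counting error alone. The targeted gene itself had higher counts in the libraries labelled KO. Gtf2ird1 (chromosome 5, 134357656 to 134456716) had 78.2, 70.2 and 70.7 CPM in the WT libraries and 166, 162 and 144 CPM in those labelled KO (log2 fold change 1.11 with a standard error of 0.13, edgeR adjusted p = 0.0018), and counts per gene do not separate a targeted from an intact transcript. Directions are therefore given for the libraries labelled KO, called KO1, KO2 and KO3. The test called 971 of the 15009 tested genes, or 6.47%, with 657 higher (4.38%) and 314 lower (2.09%) in these libraries. One library decided much of this number, since 4891 genes were called without KO3 and between 226 and 538 when any other library was left out. Of the 79 marker genes of keratinocytes, hair follicle, muscle, fibroblasts, vessels and leukocytes with counts, 78 passed the filter, and the muscle gene Tnnc2, with 0 to 5 counts per library, did not.

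Promoter sequence was examined for motifs that the pathway's own factors bind. Notch4 and Dll1 are shown because every KO library lay below every WT library, and Notch1 is shown as a receptor whose level overlapped between the genotypes. RefSeq promoter windows, running from 250 bases before to 50 bases after a gene start on GRCm38.p6, matched 8 of the 10 genes, with 2 windows for Dll1. Windows for Hes1 and Hey1 were not analysed here. Capitals mark the N box, CACNAG on either strand, which Hes proteins can bind. The Notch4, Notch1 and first Dll1 windows reach into the first exon of a GENCODE transcript, the other Dll1 window lies upstream of the annotated gene, and all windows are written 5′ to 3′ on the strand of the gene.
Notch4, chr17:34564045-34564344 (+): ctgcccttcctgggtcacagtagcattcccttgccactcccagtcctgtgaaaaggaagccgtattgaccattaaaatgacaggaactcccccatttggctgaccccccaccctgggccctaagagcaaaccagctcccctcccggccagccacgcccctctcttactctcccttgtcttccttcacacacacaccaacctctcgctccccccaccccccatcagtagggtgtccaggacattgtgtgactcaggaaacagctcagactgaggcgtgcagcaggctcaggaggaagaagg
Dll1 window 1, chr17:15375774-15376073 (-): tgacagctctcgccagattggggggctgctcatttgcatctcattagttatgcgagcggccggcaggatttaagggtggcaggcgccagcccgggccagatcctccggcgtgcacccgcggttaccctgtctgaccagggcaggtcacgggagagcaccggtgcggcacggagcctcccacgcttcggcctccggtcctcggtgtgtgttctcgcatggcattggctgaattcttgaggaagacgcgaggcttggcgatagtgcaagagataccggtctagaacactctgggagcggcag
Dll1 window 2, chr17:15376883-15377182 (-): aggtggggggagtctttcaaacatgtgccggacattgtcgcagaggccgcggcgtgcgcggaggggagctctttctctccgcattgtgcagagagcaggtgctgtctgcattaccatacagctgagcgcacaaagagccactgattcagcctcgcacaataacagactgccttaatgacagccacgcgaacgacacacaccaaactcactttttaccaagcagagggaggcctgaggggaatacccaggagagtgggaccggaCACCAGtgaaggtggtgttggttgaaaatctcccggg
Notch1, chr2:26503773-26504072 (-): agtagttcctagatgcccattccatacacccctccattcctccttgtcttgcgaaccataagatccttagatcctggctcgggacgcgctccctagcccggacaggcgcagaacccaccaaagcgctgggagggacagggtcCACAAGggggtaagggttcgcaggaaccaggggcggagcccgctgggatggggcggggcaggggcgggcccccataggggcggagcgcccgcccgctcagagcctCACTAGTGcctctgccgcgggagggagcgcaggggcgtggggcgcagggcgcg

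The N box was present in the windows of 5 of the 8 genes, with 8 matches in all, and 42.5% of all 32817 promoter windows held it. The Notch4 window held 0 N boxes and window 2 of Dll1 held 1, at position 14 after the start. The Notch1 window held 3, at -108, -3 and -1 from the start, and the last of these overlap each other on opposite strands. The other motifs were searched on both strands. The core TGGGAA that Rbpj binds, found in 25.6% of all windows, had 0 matches in the 9 windows of the Notch genes. The E box CACGTG, found in 7.15% of all windows, and the core GGATTA bound by Gtf2ird1, found in 7.06%, also had 0 matches. The Notch4 window was the poorest in CpG, with 5 CpG against 15 to 63 in the other 8 windows, and 43.6% of all windows had as few. A match or its absence describes only the letters in these windows.

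Of the receptors, Notch4 fell, and Notch1, Notch2 and Notch3 did not pass the test. Notch1 (chromosome 2, 26457903 to 26516663), the main receptor of suprabasal keratinocytes, had 282 CPM in WT1, 238 in WT2 and 274 in WT3, and 191 in KO1, 264 in KO2 and 286 in KO3. KO1 was lower than every other library, KO3 was the highest of all, and the genotypes overlapped. The mean of the WT libraries was 265 ± 23.3 CPM and that of the KO libraries 247 ± 49.4 CPM (SD, n = 3 each), with a log2 fold change of -0.10 (standard error 0.18, 95% interval -0.50 to 0.30, edgeR adjusted p = 0.725). The sign of this difference rested on KO1, without which it was 0.12, and it was 0.07 with a trend on GC content removed.

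Notch2 (chromosome 3, 98013527 to 98150361), which shares the epidermis with Notch1, had 206, 196 and 213 CPM in the WT libraries and 199, 214 and 207 CPM in KO1, KO2 and KO3. These 6 values spread least of the receptors relative to their level, and the genotypes overlapped, with means of 205 ± 8.76 and 207 ± 7.41 CPM (log2 fold change 0.01, standard error 0.12, 95% interval -0.26 to 0.28, edgeR adjusted p = 0.954). Notch3 (chromosome 17, 32120820 to 32166852), best known from vascular smooth muscle, had 181, 134 and 162 CPM in the WT libraries and 158, 178 and 176 CPM in the KO libraries. The lowest and the highest value both came from WT mice, and the means were 159 ± 23.5 and 171 ± 10.8 CPM (log2 fold change 0.10, standard error 0.15, 95% interval -0.24 to 0.44, edgeR adjusted p = 0.667).

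Notch4 (chromosome 17, 34564268 to 34588503), the endothelial receptor, had 9.22 CPM in WT1, 8.93 in WT2 and 8.46 in WT3, from 254, 210 and 188 counts. It had 4.45 CPM in KO1, 5.13 in KO2 and 5.90 in KO3, from 87, 156 and 129 counts. All KO libraries lay below all WT libraries, and the gap between the nearest of them was wider than the range within either genotype. The WT mean was 8.87 ± 0.385 CPM and the KO mean 5.16 ± 0.724 CPM (SD, n = 3 each), which is 58.2% of the WT level. Notch4 fell by 0.78 on the log2 scale (standard error 0.18, 95% interval -1.19 to -0.37, edgeR adjusted p = 0.042). Leaving out 1 library at a time, the call held only without KO3 (log2 fold change -0.88, edgeR adjusted p = 0.00724). Its adjusted p was 0.163 without WT1, 0.0906 without WT2, 0.128 without WT3, 0.186 without KO1 and 0.215 without KO2, all by edgeR. The call was also lost in 5 of 11 other settings, with edgeR adjusted p from 0.05 to 0.0755, the largest with the trend on GC content removed (log2 fold change -0.52). In bulk tissue, fewer cells of a type and less RNA per cell cannot be told apart.

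**Figure D1:**
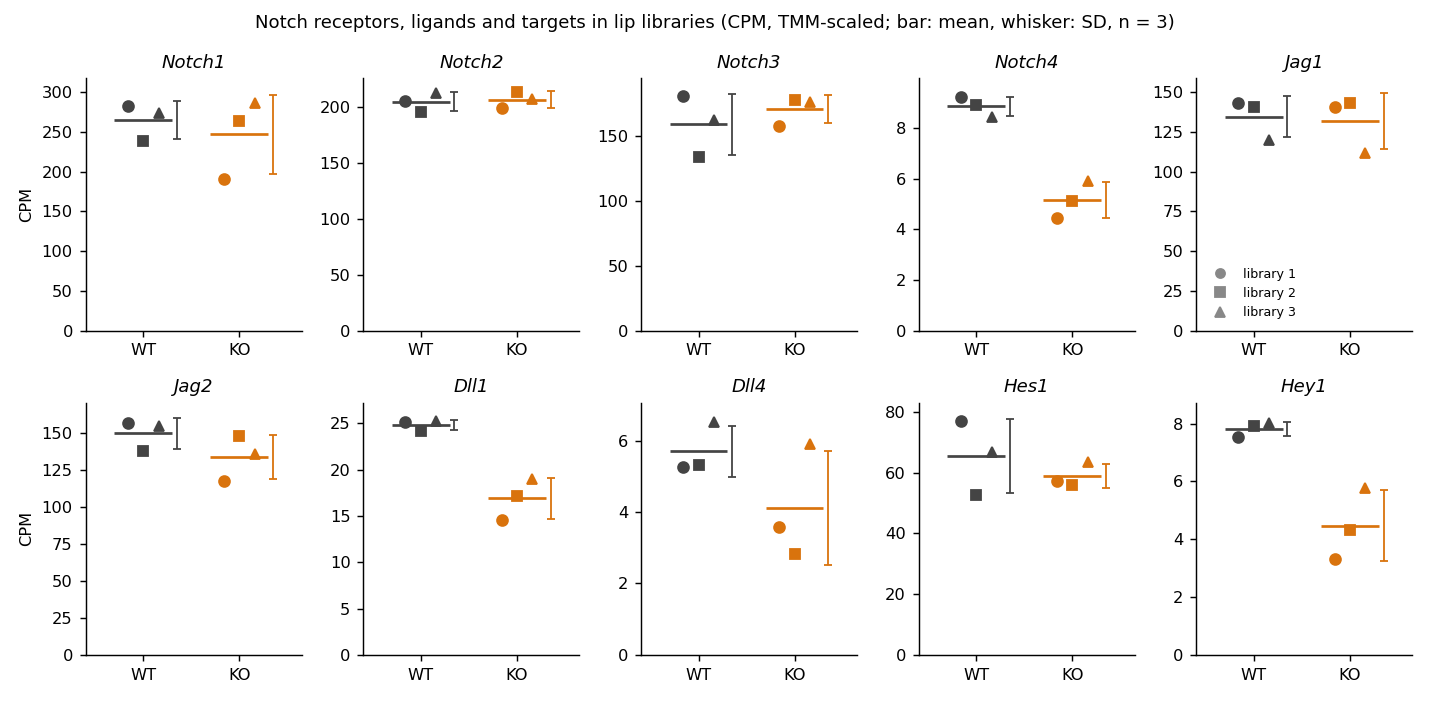
The 10 Notch genes in each library, in TMM-scaled CPM on linear axes that start at 0. Points are libraries (shape gives the replicate number), horizontal bars are means and whiskers are SD (n = 3). Notch4, Dll1 and Hey1 have all KO libraries below all WT libraries, with KO means of 5.16, 16.9 and 4.46 CPM, and the other 7 genes overlap.

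Among the ligands, edgeR's quasi-likelihood and exact tests called 0 of 4, against 6.47% and 14.9% of all tested genes. DESeq2 called 1 (14.2% over all genes) and 1 had an unadjusted p under 0.05 (29.6%). The ligands' log2 fold changes were all negative (52.0% over all genes), with a median of -0.32. Jag1 (chromosome 2, 137081456 to 137116644), a ligand of the hair follicle and of smooth muscle, had 143, 141 and 120 CPM in the WT libraries and 141, 143 and 112 CPM in the KO libraries. The third library of each genotype was the lowest, and the genotypes overlapped. The means were 135 ± 12.9 and 132 ± 17.1 CPM (log2 fold change -0.03, standard error 0.15, 95% interval -0.37 to 0.31, edgeR adjusted p = 0.912), and the sign changed with WT1, WT2 or KO3 left out, to 0.01, 0.07 and 0.08. Jag2 (chromosome 12, 112907819 to 112929776), a ligand made by basal keratinocytes, had 157, 138 and 155 CPM in the WT libraries and 118, 148 and 136 CPM in the KO libraries. KO1 and KO3 lay below every WT library and KO2 did not, and the means were 150 ± 10.8 and 134 ± 15.4 CPM (log2 fold change -0.16, standard error 0.14, 95% interval -0.48 to 0.15, edgeR adjusted p = 0.447). With the trend on GC content removed, the log2 fold change of Jag2 was 0.13.

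Dll1 (chromosome 17, 15367354 to 15376872), a Delta ligand of hair follicle and muscle precursors, had 25.1, 24.2 and 25.2 CPM in WT1, WT2 and WT3, and 14.6, 17.2 and 19.0 CPM in KO1, KO2 and KO3. The WT libraries were nearly equal, every KO library lay below them, and KO1 was the lowest. The WT mean was 24.8 ± 0.547 CPM and the KO mean 16.9 ± 2.23 CPM, 68.2% of the WT level, yet the difference did not pass (log2 fold change -0.55, standard error 0.15, 95% interval -0.89 to -0.21, edgeR adjusted p = 0.0676). Without KO3 it passed, with a log2 fold change of -0.64 (edgeR adjusted p = 0.0126). Dll1 shares exon sequence with A930024N18Rik on the opposite strand, which had 23 to 30 counts per library against 285 to 691 for Dll1.

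Dll4 (chromosome 2, 119325784 to 119335962), the Delta ligand of endothelial tip cells, had 5.26, 5.31 and 6.52 CPM in the WT libraries, from 145, 125 and 145 counts. It had 3.58, 2.83 and 5.90 CPM in KO1, KO2 and KO3, from 70, 86 and 129 counts. KO1 and KO2 lay below every WT library, while KO3 lay above WT1 and WT2. The means were 5.70 ± 0.712 and 4.10 ± 1.6 CPM (log2 fold change -0.48, standard error 0.29, 95% interval -1.14 to 0.18, edgeR adjusted p = 0.289). The difference rested on which KO library was present, since it was -0.83 without KO3 (edgeR adjusted p = 0.0193) and -0.20 without KO2 (edgeR adjusted p = 0.723).

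The target genes differed in size of change. Hes1 (chromosome 16, 30064384 to 30067796), a repressor switched on by Notch in spinous keratinocytes, had 77.1, 52.6 and 66.9 CPM in the WT libraries and 57.3, 55.9 and 63.6 CPM in the KO libraries. The WT libraries spread more widely than the KO libraries and enclosed them. The means were 65.5 ± 12.3 and 58.9 ± 4.09 CPM (log2 fold change -0.15, standard error 0.16, 95% interval -0.53 to 0.22, edgeR adjusted p = 0.549). Hey1 (chromosome 3, 8663359 to 8667256), a repressor used in arterial endothelium, had 7.55, 7.91 and 8.01 CPM in the WT libraries, from 208, 186 and 178 counts. It had 3.33, 4.31 and 5.76 CPM in KO1, KO2 and KO3, from 65, 131 and 126 counts. Every KO library lay below every WT library, with KO1 the lowest and KO3 the closest to the WT. The WT mean was 7.82 ± 0.240 CPM and the KO mean 4.46 ± 1.23 CPM, 57.1% of the WT level (log2 fold change -0.81, standard error 0.22, 95% interval -1.32 to -0.29). This was the lowest of the 10 log2 fold changes, but it did not pass over all genes (edgeR adjusted p = 0.0709). It passed without KO3 (log2 fold change -1.02, edgeR adjusted p = 0.00555) and did not pass when any other library was left out (edgeR adjusted p from 0.126 to 0.266).

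In total, 1 of the 10 Notch genes was called lower and 0 were called higher, where 6.47% of all tested genes were called in either direction and 2.09% were called lower. The KO libraries lay below the WT libraries in 3 of the 10 genes and above them in 0, where 18.1% and 13.5% of all tested genes did so. An unadjusted p under 0.05 was found for 3 of the 10 (Notch4, Dll1 and Hey1) and for 29.6% of all tested genes. Of the 10 log2 fold changes 8 were negative, against 52.0% of all tested genes, and their median was -0.16 against -0.02 over all tested genes. By group the median was -0.04 for the receptors, -0.32 for the ligands and -0.48 for the targets. These counts describe the list and carry no test of it. The number of Notch genes called was 2 with edgeR's exact test, which added Hey1, and 3 with DESeq2, which added Hey1 and Dll1, where these tests called 14.9% and 14.2% of all genes. Without KO3 it was 4 (Notch4, Dll1, Dll4 and Hey1), where 33.0% of all tested genes were called, and it was 0 when any other library was left out, where 1.53% to 3.64% were called.

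**Figure D2:**
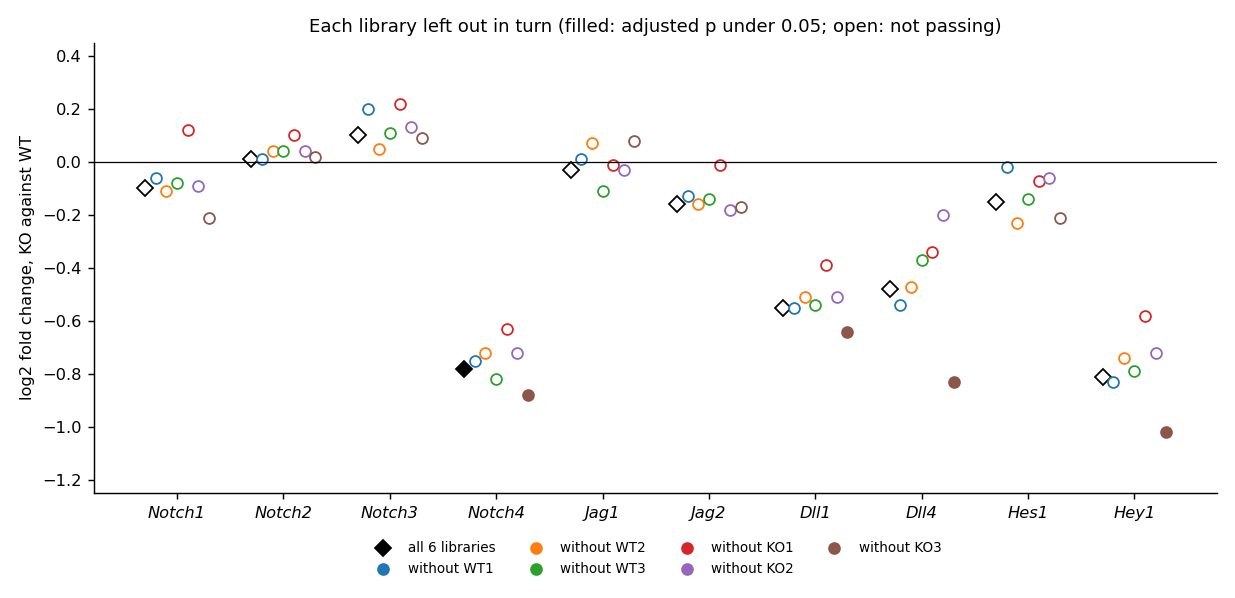
Log2 fold change of each Notch gene with all 6 libraries (diamonds) and with each library left out in turn (circles, colour gives the library). Filled symbols have an edgeR adjusted p under 0.05, which with a library left out occurs for Notch4, Dll1, Dll4 and Hey1 without KO3 only, and the circles of Notch1 and Jag1 lie on both sides of 0.

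Compared per length, Dll1, Hey1, Dll4 and Notch4 stood at the lowest levels. Levels were divided by exon length to give RPKM. In the WT, Hes1 was highest at 32.2 ± 6.05 RPKM, followed by Jag1 at 23.1 ± 2.22, Jag2 at 21.5 ± 1.55, Notch3 at 19.6 ± 2.91, Notch2 at 19.0 ± 0.813 and Notch1 at 18.6 ± 1.63 RPKM. Hes1 did not overlap Jag1, while from Jag1 to Notch1 each gene overlapped the next in the order. A clear gap then led to Dll1 at 5.88 ± 0.130, Hey1 at 2.40 ± 0.0736, Dll4 at 1.48 ± 0.185 and Notch4 at 1.10 ± 0.0478 RPKM, with no overlap between neighbours. In the KO libraries these 4 genes again stood last, at 4.01 ± 0.529 RPKM for Dll1, 1.37 ± 0.375 for Hey1, 1.07 ± 0.416 for Dll4 and 0.640 ± 0.0898 for Notch4, and there Hey1 and Dll4 overlapped.

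The makeup of the receptor and ligand pools was then compared, as shares of the summed RPKM. Notch3, Notch2 and Notch1 each held about equal parts of the receptor pool in the WT, at 33.6% ± 2.15, 32.7% ± 1.97 and 31.9% ± 0.126 (SD, n = 3). Notch4 held 1.83%, 2.11% and 1.75% of the pool in WT1, WT2 and WT3, and 1.06%, 1.04% and 1.19% in KO1, KO2 and KO3. These shares did not overlap, and their difference of -0.798 percentage points had p = 0.1 in a two-sided exact permutation test, the smallest that 3 libraries against 3 allow (adjusted p = 0.4 over the 8 shares). Dll1 held 10.9%, 11.2% and 11.8% of the ligand pool in the WT and 7.6%, 8.05% and 10% in the KO libraries, again without overlap (exact permutation p = 0.1, adjusted p = 0.4). The other 6 shares overlapped between genotypes, with exact permutation p from 0.2 to 0.9.

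The summed receptor level was 58.3 ± 5.14 RPKM in the WT and 58.2 ± 5.41 RPKM in the KO libraries (exact permutation p = 1.0). The summed ligand level was 52.0 ± 2.12 and 47.0 ± 3.13 RPKM (exact permutation p = 0.2), and KO2 at 50.6 RPKM lay within the WT range of 50.5 to 54.5. The 2 target genes summed to 34.6 ± 6.00 and 30.3 ± 2.33 RPKM (exact permutation p = 0.4), of which Hes1 made up most. None of these sums could pass 0.05 in a design of 3 against 3.

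**Figure D3:**
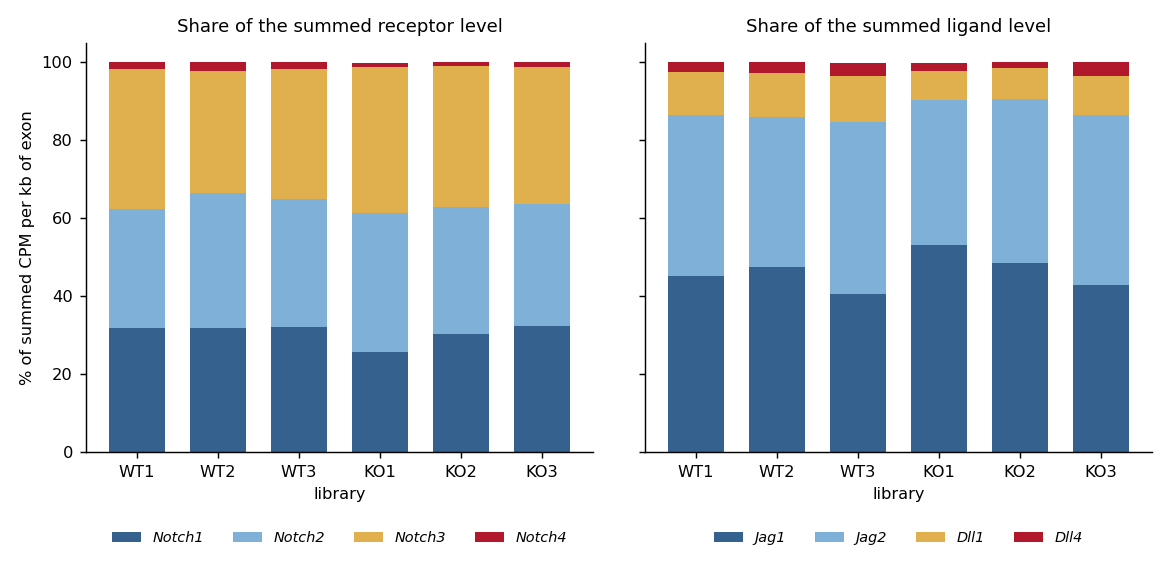
Share of each receptor (left) and each ligand (right) in the summed RPKM of its family, in percent, for the 6 libraries. Notch4 holds 1.75% or more of the receptors in the WT and 1.19% or less in the KO libraries, and Dll1 10.9% or more of the ligands against 10% or less.

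Nearly all markers of the vascular cells that use these genes had negative log2 fold changes. So did 12 of 12 tested hair follicle markers, 12 of 12 tested skeletal muscle markers and 9 of 10 fibroblast markers. In 11, 11 and 1 of these, every KO library lay below every WT library. The summed level of 10 pericyte and smooth muscle markers was 498 to 523 CPM in the WT libraries and 295 to 427.5 CPM in the KO libraries, or 70.0% of the WT. All 10 had negative log2 fold changes (52.0% of all tested genes did), 6 had every KO library below every WT library (18.1% did), and 1 was called (6.47% were). It was Tagln, a smooth muscle actin-binding protein (log2 fold change -0.59, standard error 0.14, edgeR adjusted p = 0.0437), whose call was lost when any library but KO3 was left out (edgeR adjusted p from 0.0924 to 0.221) and in 6 of 11 other settings. Of 13 endothelial markers, 4 had every KO library below every WT library (18.1% of all tested genes did). Log2 fold changes were negative in 12, of which 0 were called although 5 had an unadjusted p under 0.05 (29.6% of all tested genes did). The remaining one, the receptor kinase gene Tie1, rose from 33.3, 29.5 and 40.4 CPM to 435, 394 and 374 CPM (log2 fold change 3.54, standard error 0.17, edgeR adjusted p = 1.84e-05). With Tie1 the endothelial sum was 404 to 466 CPM in the WT and 653 to 777 CPM in the KO libraries. Without Tie1, a choice made after the data had been seen, it was 371 to 426 CPM in the WT and 234, 259 and 403 CPM in KO1, KO2 and KO3, or 75.7% of the WT. KO3 was within the WT range of endothelial markers, as it was for Dll4.

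The hair follicle markers summed to 6822 to 8522 CPM in the WT and 4021 to 5746 CPM in the KO libraries (66.9%), and 1 of 12 was called, Hoxc13, a regulator of hair keratins (log2 fold change -0.90, standard error 0.18, edgeR adjusted p = 0.0292). The skeletal muscle markers, of which Tnnt3 and Tnni2 were called lower, summed to 13860 to 17540 CPM and 7057 to 10740 CPM (51.0%). Of these calls, Hoxc13, Tnnt3 and Tnni2 held without KO3 and were lost when any other library was left out, with edgeR adjusted p from 0.0518 to 0.154, from 0.0886 to 0.203 and from 0.0873 to 0.225. The dermal fibroblast markers, with 0 of 10 called, ranged from 6704 to 8711 CPM in the WT and from 2948 to 7008 CPM in the KO libraries (61.5%). The sum was dominated by Col1a1, Col1a2 and Col3a1, at 55.3% to 59.5% of the WT. Thy1 stood at 57.9%, Twist2 at 62.2% and Dpt at 72.9%, while Dcn, Lum and Pdgfra stood at 82.3% to 85.4% and Fbln1 at 108%. Basal keratinocyte markers, with 0 of 6 called, were at 9733 to 10880 CPM and 9457 to 11220 CPM (101%). Krt5 and Krt14 dominated this sum, at 97.4% and 111% of the WT, while Col17a1 stood at 79.2% and Itga6 at 126%. Suprabasal keratinocyte markers, of which Ivl, the envelope protein involucrin, was called higher, were at 17190 to 21660 CPM and 28090 to 42530 CPM (177%). Krt1 and Krt10 dominated that sum, at 227% and 156% of the WT, while Lor stood at 80.0% and Dsg1a overlapped between the genotypes. The call of Ivl held without KO3 and was lost when any other library was left out (edgeR adjusted p from 0.0512 to 0.117). Leukocyte markers, with 0 of 8 called, were at 458 to 554 CPM and 373 to 739 CPM (112%). Cd74 dominated this sum, at 121% of the WT, while the others ranged from Itgam at 73.5% to Cd3g at 169%. The part of these markers in the Notch gene values was not tested, beyond the following ratios.

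Divided by the summed markers, Notch4 and Hey1 lay below the WT in every KO library against both vascular lists, and Dll1 overlapped. The log2 ratio of Notch4 to the endothelial sum without Tie1, set to average 0 in the WT, was 0.14, 0.04 and -0.18 in the WT libraries and -0.24, -0.18 and -0.62 in the KO libraries. The highest KO ratio and the lowest WT ratio differed only beyond the decimals given here, and the mean difference was -0.35, against -0.79 for Notch4 alone. For Hey1 the same ratio was 0.03, 0.05 and -0.08 in the WT and -0.48, -0.26 and -0.47 in the KO libraries, a difference of -0.40 without overlap, against -0.84 alone. Relative to the pericyte and smooth muscle sum, the differences were -0.26 for Notch4 and -0.31 for Hey1, both without overlap. Notch1, Notch2, Notch3 and Jag2 lay above the WT in every KO library relative to that sum, by 0.41, 0.54, 0.64 and 0.36. The same genes did so relative to the hair follicle sum, by 0.47, 0.6, 0.7 and 0.42. Jag1, Dll4 and Hes1 overlapped relative to both sums. Dll1 overlapped relative to the endothelial sum (difference -0.12), the pericyte and smooth muscle sum (-0.03) and the hair follicle sum (0.03), and Dll4 overlapped relative to the endothelial sum (-0.10). Notch4 and Hey1 also overlapped relative to the hair follicle sum (-0.20 and -0.26) and to the skeletal muscle sum (0.20 and 0.15). Relative to skeletal muscle the other 8 genes lay above the WT in every KO library, Dll1 by 0.43 and Dll4 by 0.45. Relative to the basal keratinocyte sum, the differences of Notch4, Hey1 and Dll1 were -0.81, -0.86 and -0.58, all without overlap. The ratios are descriptions with 3 libraries a genotype and have no test.

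**Figure D4:**
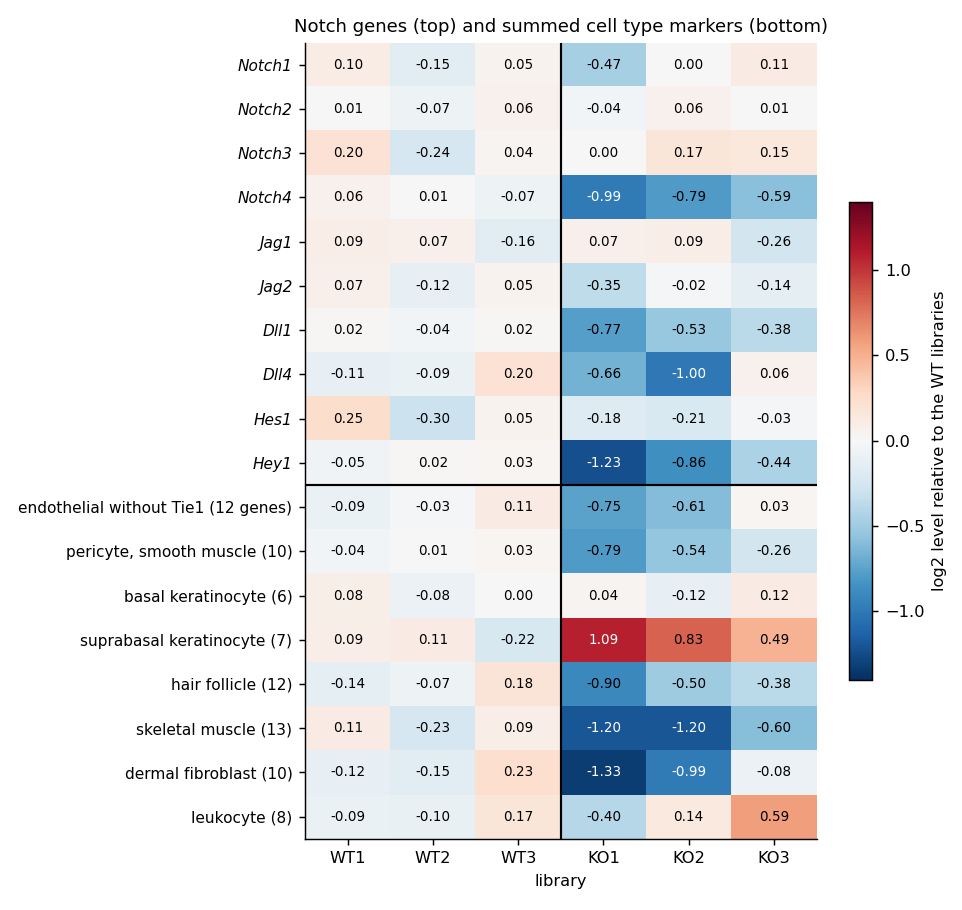
Log2 level of each Notch gene (top) and of each summed marker list (bottom) in the 6 libraries, relative to the WT libraries, with blue for lower and red for higher. Notch4, Dll1 and Hey1 are lowest in KO1 and least changed in KO3, as are the endothelial (without Tie1), pericyte and smooth muscle, hair follicle and fibroblast sums, the skeletal muscle sum is nearly equal in KO1 and KO2 and least changed in KO3, while suprabasal keratinocyte markers are highest in KO1 at 1.09 and the basal sum stays within 0.12 of the WT.

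The rest of the pathway was described with 47 further genes in 7 lists, of which 46 had counts, 41 were tested and 2 were called, both higher. Over all tested genes 6.47% were called, 4.38% were called higher, and 52.0% had negative log2 fold changes. Nrarap was not analysed here, and Dll3, Dner, Hes3, Hes5 and Hes7 had too few counts for the test, with at most 20 counts in any library. Of the 41 tested genes 27 had negative and 14 positive log2 fold changes, with a median of -0.17, and the KO libraries lay below the WT libraries in 16 and above them in 3, where all tested genes did so at 18.1% and 13.5%. An unadjusted p under 0.05 was found for 18 of them, against 29.6% of all tested genes. edgeR's exact test and DESeq2 each called 6, against 14.9% and 14.2%, and without KO3 the quasi-likelihood test called 19, against 33.0%. Beyond the called genes, those named are the highest and the lowest of each list.

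Among the ligase genes that act on ligands, Neurl1b, which promotes ligand uptake, rose from 21.5, 15.4 and 26.1 CPM in the WT libraries to 34.0, 37.6 and 44.9 CPM in KO1, KO2 and KO3. All KO libraries lay above all WT libraries (log2 fold change 0.89, standard error 0.21, edgeR adjusted p = 0.049), and the call held without KO3 (edgeR adjusted p = 0.0204) but not when any other library was dropped (edgeR adjusted p from 0.0658 to 0.168). The call of Neurl1b held in 8 of 11 other settings. Its relative Neurl1a lay on the other side, with 38.8, 22.6 and 36.3 CPM in the WT and 7.83, 11.8 and 22.5 CPM in the KO libraries (log2 fold change -1.21, standard error 0.38, edgeR adjusted p = 0.0883). Neurl1a passed in 2 of 11 other settings, the exact test (adjusted p = 0.00555) and DESeq2 (adjusted p = 0.0198). With a library left out it passed in 1 of 6 fits, without KO3 (edgeR adjusted p = 0.00232). Among the negative regulators and Deltex proteins, Dtx3l, a ubiquitin ligase that pairs with Parp9, rose from 13.2, 13.2 and 12.1 CPM to 27.2, 55.0 and 55.0 CPM (log2 fold change 1.84, standard error 0.27, edgeR adjusted p = 0.0063). Every KO library was higher than every WT library, and the call was kept with each library left out. Dtx3l shares sequence with Parp9 on the opposite strand, which rose as well (log2 fold change 2.34, edgeR adjusted p = 0.000961). Without a stated strand setting, reads from the shared sequence cannot be assigned to either gene. The lowest of that list was Dtx1, with a log2 fold change of -0.71 (standard error 0.36, edgeR adjusted p = 0.220), which was -0.41 without KO1 and -1.18 without KO3 (edgeR adjusted p = 0.0108).

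The Delta-like relatives Dlk1 and Dlk2, which lack the receptor-activating domain, had log2 fold changes of -1.0 (standard error 0.34, edgeR adjusted p = 0.107) and -0.64 (standard error 0.18, edgeR adjusted p = 0.0699). In both genes every KO library lay below every WT library. WT1, at 5.55 CPM of Dlk1 against 3.06 in WT2 and 2.38 in WT3, set much of the first difference, which was -0.56 without it. Of the 5 glycosyltransferases that modify the receptors, 0 were called (6.47% of all tested genes were). At an unadjusted p under 0.05 there were 2 (29.6% of all tested genes), by the exact test 1 (14.9%) and by DESeq2 0 (14.2%). All KO libraries lay below the WT in 4 (18.1% of all tested genes). Mfng was the lowest (log2 fold change -0.66, standard error 0.19, edgeR adjusted p = 0.0782) and Poglut1 the highest (0.35, standard error 0.23, edgeR adjusted p = 0.332). Of the 10 receptor-cutting proteases and gamma-secretase subunits 0 were called, 3 had an unadjusted p under 0.05, and the exact test and DESeq2 called 0 and 1. The shares over all tested genes are those just given. This list ran from Psen2 (log2 fold change -0.68, standard error 0.22, edgeR adjusted p = 0.0931) to Adam17 (0.48, standard error 0.16, edgeR adjusted p = 0.103), with a median of -0.13. Aph1b and Aph1c in that list are close paralogs whose reads may be split unevenly.

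The 7 genes of the nuclear complex had a median log2 fold change of 0.00 and 0 calls (6.47% of all tested genes were called). At an unadjusted p under 0.05 there was 1 (29.6% of all tested genes), and the other tests called 0. The list ran from Maml1 (-0.12, standard error 0.15, edgeR adjusted p = 0.620) to Snw1 (0.58, standard error 0.25, edgeR adjusted p = 0.165). Rbpj, named here after its value had been seen because all 4 receptors act through it, had 74.7, 80.0 and 78.1 CPM in the WT and 73.6, 72.6 and 74.5 CPM in the KO libraries. The KO libraries lay just below the WT libraries, with a log2 fold change of -0.08 (standard error 0.11, 95% interval -0.34 to 0.18, edgeR adjusted p = 0.674). The 4 other Hes and Hey genes with enough counts all had negative log2 fold changes (52.0% of all tested genes did). In 3 every KO library lay below every WT library (18.1% of all tested genes). None was called (6.47% were), although 3 had an unadjusted p under 0.05 (29.6% did). Of the 4, the exact test and DESeq2 called 0 (14.9% and 14.2% over all genes). They ran from Heyl, a Notch target of vascular smooth muscle (27.4, 22.8 and 31.8 CPM in the WT and 12.4, 18.3 and 21.1 CPM in the KO libraries, log2 fold change -0.66, standard error 0.22, edgeR adjusted p = 0.103), to Hes6 (-0.47, standard error 0.16, edgeR adjusted p = 0.108).

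**Figure D5:**
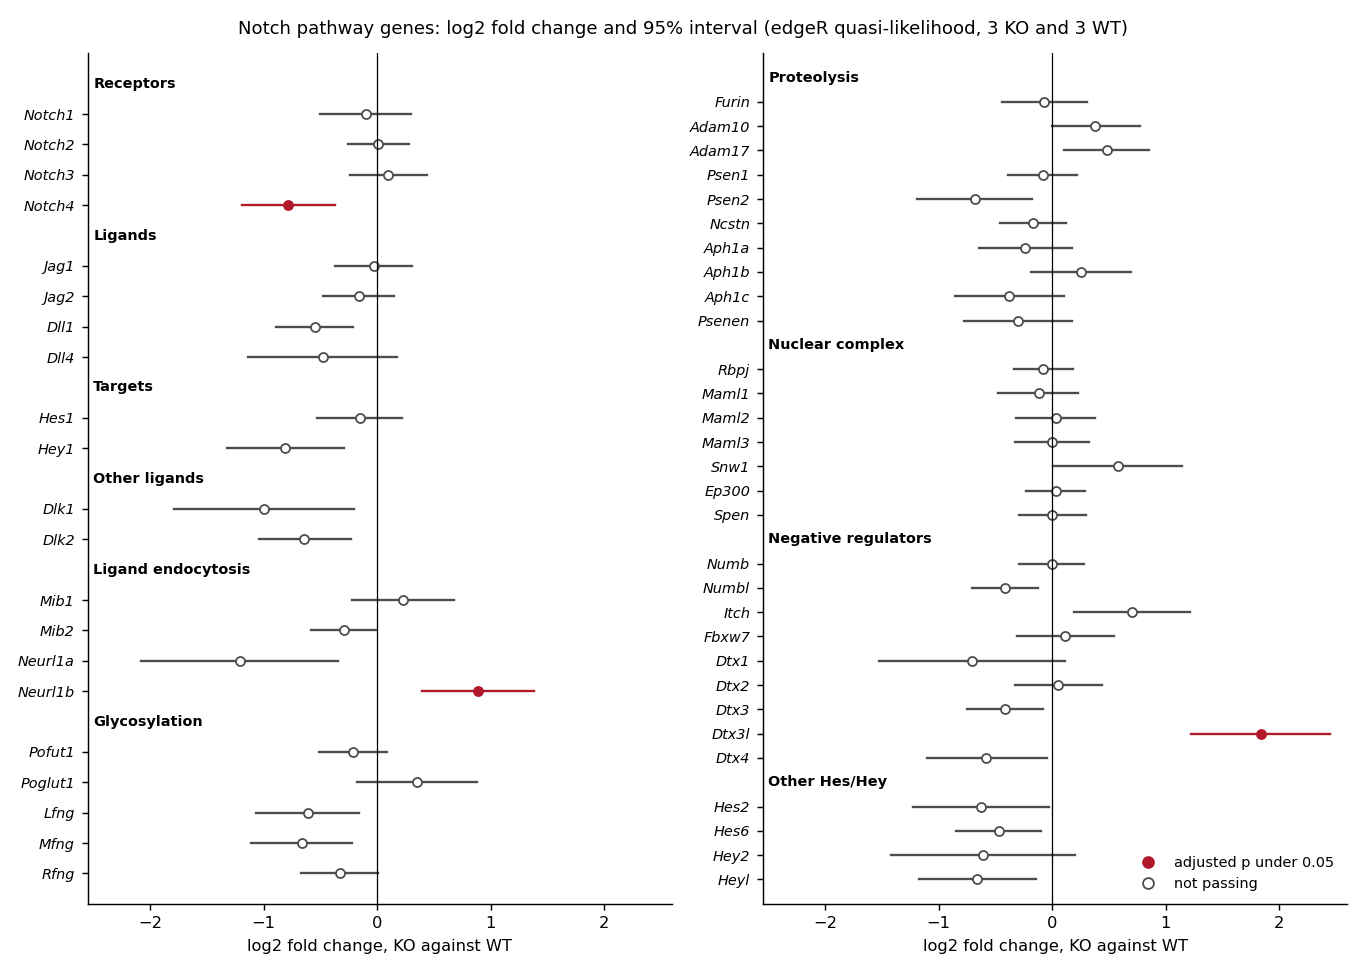
Log2 fold change of KO against WT with 95% intervals from edgeR's quasi-likelihood fit for the 10 Notch genes and the 41 tested genes of the other pathway lists. Filled red points have an adjusted p under 0.05: Notch4 at -0.78, Neurl1b at 0.89 and Dtx3l at 1.84. The remaining genes, open, include Hey1 at -0.81 and Dll1 at -0.55, whose intervals lie below 0 without passing after adjustment.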

How the data were processed

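RNA-Seq counts of top lip from 3 WT and 3 KO female mice were used. Paired-end reads had been aligned by the authors to GRCm38 using TopHat2 2.0.8 and Bowtie2 2.1.0 and they deposited raw counts per gene symbol from HTSeq-count, without normalization. The strand setting is not given in the sources used here, so a count can include reads of an overlapping gene on the opposite strand.

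Genes reaching 1 CPM in 3 or more libraries (15009 of 26814 symbols, 99.8% of counts) were tested with edgeR 4.0.16 in R 4.3.3: TMM factors, glmQLFit with legacy=FALSE, glmQLFTest and Benjamini-Hochberg adjustment at 0.05. The study's exact test was an alternative, beside DESeq2 1.42.0, limma-voom (limma 3.58.1), other normalizations and filters, a replicate block and each library left out. Trends on length and GC content (lowess span 0.3), removed per library, were added after the data had been seen. Labels do not say that equal replicate numbers mark related mice. Exon lengths, GC content and coordinates came from GENCODE M21, which held 24858 symbols. Promoters came from RefSeq on GRCm38.p6. Shares were compared with exact permutation tests in scipy 1.17.1. The edgeR quasi-likelihood procedure was tested on simulated counts, and the permutation tests were not. SEs come from the fit.

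Members and lists were chosen with earlier results of these data known. All 10 members are named, with called genes and the highest and lowest of each pathway list, and called markers. Krt85 and Nrarap were not analysed here, and Adgre1 was read under its older symbol Emr1.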

Additional observations from a re-analysis of the deposited data

How the results depend on the processing

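The number of Notch genes called (1) was 2 with the exact test, 3 with DESeq2, 3 with the length trend removed, 3 at an adjusted p under 0.1, and 0 with library size alone, with no filter and with a minimum of 10 counts per library. Dropping single libraries gave 0 to 4. With the GC trend removed it was 1, Hey1 in place of Notch4. The other pathway genes called (2) numbered 6 with the exact test and with DESeq2, 1 with upper-quartile factors, with at least 10 counts and with the length trend removed, and 1 to 19 with each library left out. The marker genes called (6) numbered 21 with the exact test, 19 with DESeq2, 12 with the length trend and 17 with the GC trend removed, and 1 to 46 with each library left out. Over all genes, 2238 were called by the exact test, 2409 by DESeq2, 1699 with the GC trend removed (840 higher and 859 lower), 1180 with the length trend removed (665 higher and 515 lower), 2529 at an adjusted p under 0.1, and 226 to 4891 with each library left out. The causes were not tested.

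Of the 10 Notch genes, Notch4, Dll1, Dll4, Hes1 and Hey1 stayed negative in all fits. Signs turned in genes near 0: Notch1 (0.07 with the GC trend removed, -0.21 to 0.12 with libraries left out), Notch2 (-0.04 with upper-quartile factors, -0.11 with the length trend removed), Notch3 (-0.01 with the length trend removed), Jag1 (0.01 with DESeq2, 0.02 with no filter, -0.11 to 0.08 with libraries left out) and Jag2 (0.13 with the GC trend removed). Maml1 was 0.03 with the GC trend removed and -0.23 to 0.05 with libraries left out. With libraries left out, the share difference of Notch2 lay between -0.867 and 1.34 percentage points and that of Jag2 between -1.89 and 1.39.

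Same-numbered libraries had correlations of -0.192, 0.293 and 0.312 between their deviations from the genotype means, and WT2 correlated better with KO1 (0.407) than with KO2, so the numbers were not taken as pairs. With a replicate block 797 genes and 0 Notch genes were called (Notch4 edgeR adjusted p = 0.0657), and among the named markers Tagln (0.0509), Tnnt3 (0.0573) and Tnni2 (0.0502) also lost their call. The filter on low counts left 5 of the other pathway genes, with at most 20 counts in any library, untested.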
